A study of Mus musculus with 4 samples.

Results

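Cytochrome P450 enzymes, encoded in the mouse by the Cyp genes, were followed across 4 kidney expression arrays. The members were the genes whose probe name starts with Cyp and one of the family numbers 1, 2, 3, 4, 7, 8, 11, 17, 24, 27, 39 or 51 followed by a letter, with pseudogenes and the retinoic acid hydroxylases of another family left out. Cyp51 was kept although its name in the files has no letter after the number. The rule found 74 genes, read by 109 probes, among 21080 named genes on the array. The brightest probe of each gene, by its mean over the arrays, was used, and 58 members had that probe well above background on at least 2 arrays, as did 16536 of all genes. These 58 are called the measured members. Of them, 51 were above background on all 4 arrays, 5 on 3 arrays and 2 on 2 arrays.

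Kidneys came from wild type (WT) or NLRC5-/- mice, both labelled C57BL/6 and 8 weeks old, after sham surgery or after bilateral renal ischemia, kept for 30 min and followed by reperfusion. NLRC5 is a regulator of MHC class I genes. The sample titles and the study design put the reperfusion at 48 h, and the sample descriptions name 24 h. Each of the 4 groups held 1 array, so a difference between 2 arrays has no replicate check and gets no p-value. Which part of the gene the NLRC5-/- allele removes, and whether the mice were littermates, is not given in the sources used here.

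Several properties of the arrays bear on all results. The 75th percentile of the signal, to which every level below is set, was 456.2, 465.4, 181.7 and 362.2 on the WT sham, NLRC5-/- sham, WT injured and NLRC5-/- injured arrays, and 67.3% to 74.6% of probes were well above background. Both WT arrays lay on 1 slide and both NLRC5-/- arrays on another, so that genotype and slide cannot be told apart, whereas each injury comparison lies within a slide. The single Nlrc5 probe read -4.08, -3.77, -3.34 and -3.62 in the same order and did not separate the genotypes. It does not check the labels unless it lies in the deleted part, and the genotypes below are those of the labels. The NLRC5-/- sham array had Xist at 5.20 and the 4 Y-linked genes Ddx3y, Eif2s3y, Kdm5d and Uty at background, and the other 3 arrays showed the reverse. The labels give no sex. Every comparison with the NLRC5-/- sham array therefore also sets a female pattern against a male one, and each injured array is also given against the WT sham array. Repeated spots gave a technical SD of 0.157 to 0.191 for a log2 difference, which leaves out the spread between animals.

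P450 enzymes are heme proteins, most of them anchored in the endoplasmic reticulum and some in mitochondria, that insert oxygen into lipids, steroids and foreign compounds with electrons from a reductase. In mouse kidney they sit mainly in the proximal tubule, where several subfamilies are known to differ between males and females. Members of families 1 to 3 oxidise drugs, odorants and arachidonic acid, family 4 hydroxylates fatty acids, and the remaining families make or degrade steroid hormones, sterols, bile acids and vitamin D. Levels below are log2 signal minus the 75th percentile of the array, so that 0 is the 75th percentile. Hybridisation differs between probes, and levels are compared between arrays for 1 probe and not between genes.

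The genes lie in clusters of close copies, and the probe sequences show which copies a value can represent. Each probe is a 60-base oligonucleotide. For 10 of the 58 measured members the brightest probe also listed an accession of another gene in the array annotation. The Cyp2j13 probes are shown because they disagreed with each other, the Cyp2d9, Cyp2d12, Cyp2e1 and Cyp2a22 probes because their genes were past 2-fold in several comparisons, and the Cyp4a12b probe because it also lists Cyp4a12a. Positions are in mm9 as given in the files, and capitals mark the 18 bases that the brightest Cyp2j13 probe shares with a probe of Cyp2j11.
Cyp2j13, listing Cyp2j13 alone (chr4:95738259-95738318, minus strand): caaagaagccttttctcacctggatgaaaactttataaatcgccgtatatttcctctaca
Cyp2j13, brightest, also listing Cyp2j12 (chr4:95712305-95723288, minus strand): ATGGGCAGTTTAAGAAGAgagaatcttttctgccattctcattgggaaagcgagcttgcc
Cyp2d9, also listing Cyp2d11, Cyp2d34 and Cyp2d40 (chr15:82286832-82286891, plus strand): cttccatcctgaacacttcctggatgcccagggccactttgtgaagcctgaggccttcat
Cyp2d12 (chr15:82388259-82388501, plus strand): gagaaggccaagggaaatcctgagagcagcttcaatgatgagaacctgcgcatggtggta
Cyp2e1 (chr7:147959585-147959644, plus strand): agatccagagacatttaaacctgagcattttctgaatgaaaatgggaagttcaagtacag
Cyp2a22 (chr7:27722746-27722805, minus strand): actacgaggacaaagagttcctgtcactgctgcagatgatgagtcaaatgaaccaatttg
Cyp4a12b, also listing Cyp4a12a (chr4:115106662-115107596, plus strand): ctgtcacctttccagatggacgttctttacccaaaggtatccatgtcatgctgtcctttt
The brightest Cyp2j13 probe spans 10984 bases of the genome, the Cyp4a12b probe 935 and the Cyp2d12 probe 243, so that these probes cross an intron. A Cyp2a4 probe, not its brightest, and the Cyp2a5 probe share a run of 28 bases, the longest shared by probes of different members.
Shared by Cyp2a4 and Cyp2a5: GTAGACTTGCAGAGGATATTTCAAAGGT
The brightest Cyp2a4 probe also lists Cyp2a5, so Cyp2a4 and Cyp2a5 cannot be read as independent values. The same holds for Cyp4a12a and Cyp4a12b, whose probes each list both genes.

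In WT kidneys 18 of 54 members with a value were at least 2-fold lower after injury and 4 were at least 2-fold higher. Among all genes 13.2% were lower and 14.1% higher. The median difference of the members was -0.20 and that of all genes -0.01. In NLRC5-/- kidneys 8 of 58 members were lower and 9 higher after injury, against 3.11% and 4.30% of all genes (7.42% either way), with a median of -0.02. Against the WT sham array, the NLRC5-/- injured array had 11 members lower and 2 higher, against 8.54% and 8.69% of all genes. Between the sham arrays, 11 members were lower and 4 higher in NLRC5-/-, against 3.01% and 3.74% of all genes (6.75% either way). Higher values made up 55.4% of all genes past 2-fold between the sham arrays, and 34.7% when each array was set to its median, which left the members at 2 higher and 11 lower. For the NLRC5-/- injured against the WT sham array that share went from 50.4% to 35.7%. Between the injured arrays, 18 of 55 members were higher and 5 lower in NLRC5-/-, against 9.0% and 7.38% of all genes. In all, 25 of the 58 measured members were past 2-fold in none of the 5 comparisons by their brightest probe. Of these, Cyp2b10, Cyp2b23, Cyp2c55 and Cyp2c65 were too dim on some arrays to show that they stayed within 2-fold. Cyp2b10, Cyp2b23 and Cyp2c65 had no value for injury in WT, and Cyp2b10 and Cyp2c65 none between the injured arrays. Cyp2b23 was higher by at least 0.96 in NLRC5-/- injured than in WT sham kidney and may lie past 2-fold there. The 5 comparisons share arrays and are not independent of each other. Normexp background correction, which corrects each spot for its local background, gave other values for some members. An offset of 50 was added to these signals before the log, with or without replaced backgrounds. Such an offset shrinks the log2 differences of dim probes, and its part in these values was not tested. On the NLRC5-/- injured array 4 spots had a local background over 10 times the array median, with a maximum of 11116 against a median of 35, and on the other 3 arrays none had. Normexp values are therefore also given with local backgrounds that the scanner software flagged as outliers replaced by the array median (replaced backgrounds below), an alternative chosen after seeing the data.

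**Figure D1:**
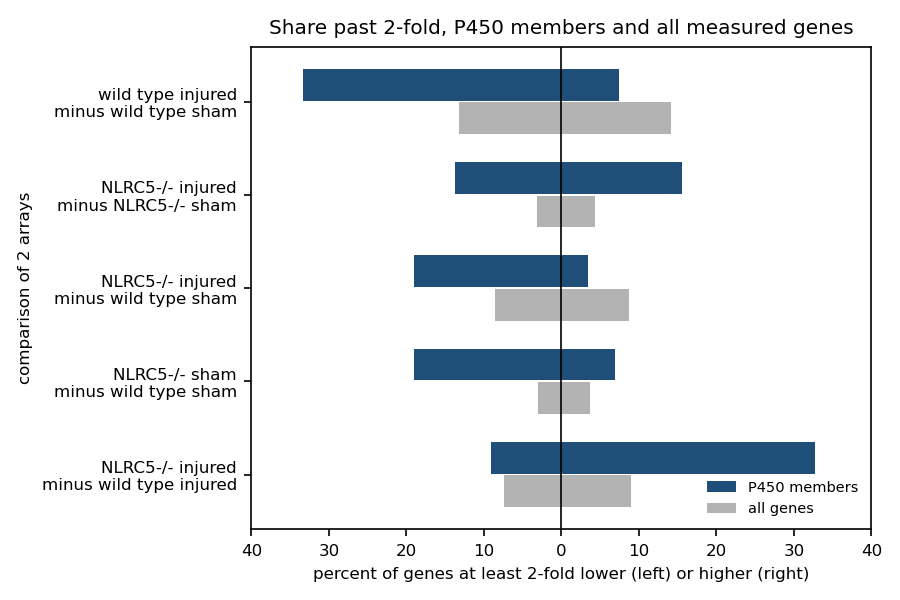
Percent of genes at least 2-fold lower (bars to the left) or higher (bars to the right) in each comparison of 2 arrays, for the measured P450 members (dark) and all measured genes (grey). The longest dark bars are the 18 members lower in WT injured kidney and the 18 members higher in the NLRC5-/- injured than in the WT injured kidney.

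Markers of the tissue moved with these counts. All 15 proximal tubule markers on the list were above background on all 4 arrays, as the kidney label requires, and their summed level relative to the 75th percentile was 2252 in WT sham, 1809 in NLRC5-/- sham, 1464 in WT injured and 2084 in NLRC5-/- injured kidney. In WT kidneys 12 of the 15 were at least 2-fold lower after injury, with a median of -2.57, and in NLRC5-/- kidneys 1 was lower and 2 were higher. Of 8 tubular injury markers, 7 were higher after injury in each genotype, with medians of 3.89 in WT and 2.29 in NLRC5-/-, and 6 of the 8 were lower in the NLRC5-/- injured than in the WT injured array. In whole kidney, fewer proximal tubule cells and less RNA per cell cannot be told apart. The WT sham array also had fat markers that the others lacked: Adipoq and Plin1 were above background there alone, and the summed level of the 7 fat markers was 49.2 there and 13.3, 4.83 and 9.41 on the NLRC5-/- sham, WT injured and NLRC5-/- injured arrays, with Lep at background on all. The 3 red cell genes summed to 55.9 on the NLRC5-/- sham array and to 6.54, 1.83 and 1.36 on the WT sham, WT injured and NLRC5-/- injured arrays. The part of these cells in the P450 values was not tested.

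Within families 1 to 3, 48 genes were on the array and 37 were measured. After injury in WT kidneys 13 of 33 were lower and 4 higher, against 13.2% and 14.1% of all genes. The share higher, 12.1%, was near that of all genes. In NLRC5-/- kidneys 4 of 37 were lower and 6 higher, against 3.11% and 4.30% of all genes. The plot of their levels shows the WT injured array as the lowest point for most members of the Cyp2d and Cyp2j groups.

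**Figure D2:**
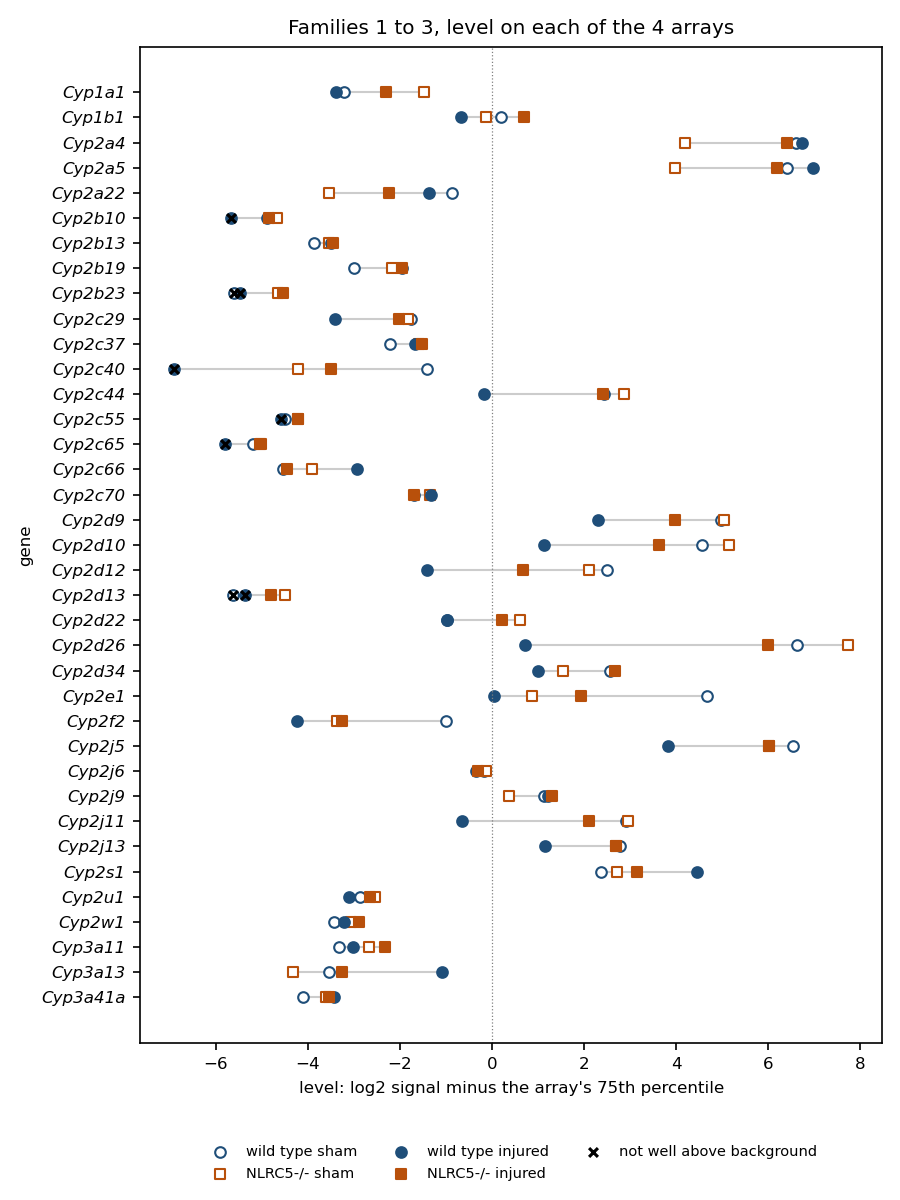
Level of each measured member of families 1 to 3 (log2 signal minus the array's 75th percentile, x axis) on the WT sham (open circle), NLRC5-/- sham (open square), WT injured (filled circle) and NLRC5-/- injured (filled square) array, with grey lines from lowest to highest and crosses where the probe was not well above background. The widest line is that of Cyp2d26, from 0.71 to 7.74.

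The Cyp2d genes encode the drug-oxidising enzymes related to human CYP2D6 and lie together on chromosome 15. All 7 were measured, and Cyp2d13 was above background on the NLRC5-/- arrays only. Of the 6 with a value in WT kidneys, 5 were lower after injury, against 13.2% of all genes, with a median of -3.05 over the 6. Cyp2d26 read 6.63 in WT sham, 7.74 in NLRC5-/- sham, 0.71 in WT injured and 6.00 in NLRC5-/- injured kidney. The WT injured array stood apart from the other 3, 60.8-fold below WT sham, and the NLRC5-/- injured array was 3.34-fold below its own sham and 1.55-fold below WT sham. Cyp2d12 read 2.49, 2.11, -1.40 and 0.68 in the same order. It was 14.8-fold lower after injury in WT and 2.70-fold lower in NLRC5-/- kidney. Cyp2d10 read 4.57, 5.14, 1.13 and 3.64, which made it 10.8-fold lower in WT and 2.84-fold lower in NLRC5-/- kidney. A second Cyp2d10 probe stayed between -2.12 and -1.72 on all arrays and differed by -0.32 in WT and 0.25 in NLRC5-/-, so that the probes of this gene disagree and their mean gave -0.63 in NLRC5-/-. Cyp2d9, whose probe cannot be told from close copies, read 4.98, 5.03, 2.31 and 3.97. It was lower after injury by 6.35-fold in WT and by 2.08-fold in NLRC5-/- kidney, where normexp with replaced backgrounds gave -0.98, just under 2-fold. A second Cyp2d9 probe gave -2.05 in WT and -0.99 in NLRC5-/-. For NLRC5-/- injured against WT sham that probe gave -0.84, where the brightest probe gave -1.01. For these 4 genes the injured arrays lay below both sham arrays and the WT injured array was the lower of them.

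Cyp2d34 and Cyp2d22 did not follow that order. Cyp2d34 read 2.57 in WT sham, 1.54 in NLRC5-/- sham, 1.0 in WT injured and 2.66 in NLRC5-/- injured kidney. It was 2.97-fold lower after injury in WT and 2.18-fold higher in NLRC5-/-, while the NLRC5-/- injured array differed from WT sham by only 0.10. Cyp2d22 read -0.97, 0.61, -0.99 and 0.22. It was higher on both NLRC5-/- arrays, by 1.58 in sham and 1.20 in injured kidney. Against WT sham the NLRC5-/- injured array was 1.19 higher by this probe and differed by -0.12 by the mean over probes. Its other 2 probes did not show this in sham kidney at 2-fold, with differences of -0.06 and 0.80, and they were lower after injury in WT by 1.83 and 0.98. Between the injured arrays all 6 Cyp2d genes with a value were at least 2-fold higher in NLRC5-/- by their brightest probe, with a median of 1.87. Among all genes 9.0% were at least 2-fold higher there. The Cyp2d9 probe also lists Cyp2d34, so the 6 are not independent. By the second Cyp2d10 probe the difference between the injured arrays was 0.40. For Cyp2d22 it was 0.39 and 0.88 by its other probes, 0.82 by the mean over probes and 0.87 with normexp background correction, all under 2-fold.

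The Cyp2j genes encode epoxygenases that turn arachidonic acid into epoxyeicosatrienoic acids. In WT kidney 3 of 5 were lower after injury, against 13.2% of all genes. Cyp2j5, an abundant kidney epoxygenase known to be higher in males, read 6.54 in WT sham, 6.03 in NLRC5-/- sham, 3.83 in WT injured and 6.02 in NLRC5-/- injured kidney. The WT injured array alone was low, by 6.56-fold against WT sham, and the NLRC5-/- arrays differed by -0.01. Its second probe gave -2.15 and -0.01 for the same differences. Cyp2j11 read 2.91, 2.95, -0.65 and 2.10, which was 11.8-fold lower after injury in WT and 1.80-fold lower in NLRC5-/- kidney. Cyp2j6 and Cyp2j9 differed by -0.16 and 0.09 in WT, Cyp2j6 by its brightest probe. A second Cyp2j6 probe gave -1.61 in WT and -1.07 for NLRC5-/- injured against WT sham, both past 2-fold.

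Cyp2j13 depended on the probe. Its brightest probe, which also lists Cyp2j12, read 2.79, 2.70, 1.16 and 2.68, with the sham arrays 0.08 apart. A probe listing Cyp2j13 alone (chr4:95711984-95712043, mm9) read 4.57 in WT sham, -4.57 in NLRC5-/- sham, 1.77 in WT injured and 2.13 in NLRC5-/- injured kidney. That is 566-fold lower in NLRC5-/- sham than in WT sham, and 104-fold higher in the NLRC5-/- injured than in the NLRC5-/- sham kidney. The third probe, also listing Cyp2j13 alone and printed above, read -0.29, -4.93, -2.59 and -1.15, a 24.9-fold difference between the sham arrays. Both Cyp2j13-only probes were thus lowest on the array with the female pattern. On all 3 probes the WT injured array was below WT sham, by 1.63, 2.80 and 2.30. The sham arrays thus lay within 2-fold by the brightest probe and far apart by the other 2.

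**Figure D3:**
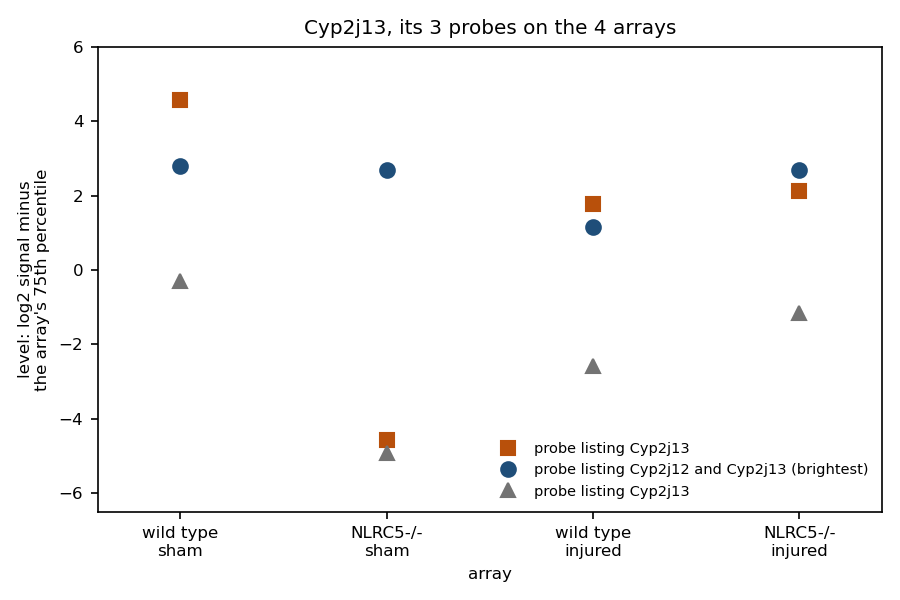
Level of the 3 Cyp2j13 probes (log2 signal minus the array's 75th percentile, y axis) on each of the 4 arrays, by the genes each probe lists. The brightest probe (circles) reads 2.70 on the NLRC5-/- sham array where the 2 probes listing Cyp2j13 alone read -4.57 and -4.93.

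Of 11 Cyp2c genes, which encode drug and arachidonic acid oxidases, 8 were measured. In WT kidney 3 of 7 with a value were lower after injury, against 13.2% of all genes. Cyp2c44, listed by RefSeq as Cyp2c23 and known as the main renal epoxygenase of its subfamily, read 2.42 in WT sham, 2.86 in NLRC5-/- sham, -0.18 in WT injured and 2.42 in NLRC5-/- injured kidney. It was 6.08-fold lower after injury in WT and 1.36-fold lower in NLRC5-/-, where it ended at the WT sham level. Cyp2c29 read -1.75, -1.83, -3.42 and -2.02 and was low on the WT injured array alone, 3.17-fold under WT sham. Cyp2c40 read -1.41, -4.23, -6.91 and -3.50, and its probe was not well above background in WT injured kidney. It was at least 10.1-fold lower there than in WT sham and 7.05-fold lower in NLRC5-/- sham than in WT sham. The NLRC5-/- injured array was 2.09 below WT sham, and 0.24 above it with normexp background correction, though not with replaced backgrounds, where it stayed at least 2-fold lower. That probe lists Cyp2c67, Cyp2c68 and Cyp2c69 too. A second Cyp2c40 probe, at -4.14, was above background in WT sham only. Cyp2c66 went the other way, from -4.54 in WT sham to -2.93 in WT injured kidney, 3.04-fold higher, with -3.91 and -4.45 on the NLRC5-/- arrays. Between the injured arrays it differed by -1.52, which was 0.95 with normexp background correction and -0.65 with replaced backgrounds. The difference in WT was 0.62 and 0.67 with these corrections, under 2-fold.

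The Cyp2a genes, which encode steroid and coumarin hydroxylases known to differ between the sexes in mouse, separated the NLRC5-/- sham array from the rest. Cyp2a4 read 6.61 in WT sham, 4.19 in NLRC5-/- sham, 6.73 in WT injured and 6.40 in NLRC5-/- injured kidney. Cyp2a5 read 6.40, 3.98, 6.97 and 6.18. Cyp2a22 read -0.86, -3.54, -1.37 and -2.24. All 3 measured Cyp2a genes were at least 2-fold lower in NLRC5-/- sham than in WT sham, by 5.36-fold, 5.37-fold and 6.39-fold. All 3 were at least 2-fold higher in NLRC5-/- injured than in NLRC5-/- sham kidney. Among all genes 3.01% were lower in the first comparison and 4.30% higher in the second. The injured arrays differed from WT sham by 0.12 and -0.21 for Cyp2a4 and by 0.57 and -0.22 for Cyp2a5, so that their large values arise on the NLRC5-/- sham array, where the sexes differ too. The part of sex was not tested. Cyp2a22 remained 2.59-fold lower in NLRC5-/- injured than in WT sham kidney. That difference was -0.06 with normexp background correction and -0.97 with replaced backgrounds, and its NLRC5-/- injury difference was 0.67 with the latter.

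Cyp2e1 and Cyp2f2 were highest on the WT sham array. Cyp2e1, which oxidises ethanol and small solvents, read 4.67 in WT sham, 0.87 in NLRC5-/- sham, 0.03 in WT injured and 1.94 in NLRC5-/- injured kidney. It was 24.9-fold lower after injury in WT and 13.9-fold lower in NLRC5-/- sham than in WT sham, and 2.10-fold higher after injury in NLRC5-/-. Cyp2f2, best known from lung, where it activates naphthalene, read -0.99, -3.37, -4.24 and -3.26, and was 9.49-fold lower after injury in WT and 5.18-fold lower in NLRC5-/- sham than in WT sham. The NLRC5-/- injured array was 2.27 below WT sham for Cyp2f2, and 0.10 below it with normexp background correction. With replaced backgrounds Cyp2f2 stayed at least 2-fold lower there. The higher Cyp2e1 value after injury in NLRC5-/-, 1.07, was 0.52 with normexp background correction and 0.95 with replaced backgrounds. The WT sham array is the one on which fat markers were high, as given above, and the female-pattern array is on the other side of the sham comparison. The part of either in these values was not tested.

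Of the measured members, 4 were at least 2-fold higher after injury in WT kidney. Cyp3a13, a steroid and drug oxidase, read -3.55 in WT sham, -4.33 in NLRC5-/- sham, -1.08 in WT injured and -3.25 in NLRC5-/- injured kidney. It was 5.52-fold higher after injury in WT and 2.11-fold higher in NLRC5-/-. Cyp2s1, an epithelial enzyme inducible through the dioxin receptor, read 2.37, 2.71, 4.44 and 3.15. It was 4.21-fold higher in WT and 1.36-fold higher in NLRC5-/-, and in both genes the WT injured array stood above the other 3. For Cyp3a13 the injured arrays differed by -2.17, but by -0.15 with normexp background correction. With replaced backgrounds that difference stayed at least 2-fold, while the NLRC5-/- injury difference of 1.08 was 0.37. Cyp2c66, given above, and Cyp2b19, at -3.00 in WT sham and -1.96 in WT injured kidney, completed the list. Cyp2b19 lay just inside the threshold at 2.06-fold and was 0.95 or less on the log2 scale with each of the other scalings.

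Cyp1a1, the classic target of the dioxin receptor, read -3.21 in WT sham, -1.49 in NLRC5-/- sham, -3.40 in WT injured and -2.30 in NLRC5-/- injured kidney. Both NLRC5-/- arrays were above both WT arrays, by 3.30-fold in sham and 2.14-fold in injured kidney. These differences, 1.72 and 1.10, were 0.99 and 0.46 with normexp and replaced backgrounds, both under 2-fold. Cyp1b1 read 0.19, -0.13, -0.67 and 0.69, and was 2.56-fold higher in NLRC5-/- injured than in WT injured kidney. That log2 difference of 1.36 was 0.94 with normexp and 0.52 by the mean over probes, and stayed at least 2-fold with replaced backgrounds. Cyp1a2, known mainly from liver, was not well above background on any array. The same held for Cyp2a12, Cyp2c38, Cyp2c54, Cyp2g1, Cyp3a16 and Cyp3a44. Cyp2ab1, Cyp2b9, Cyp2c39 and Cyp3a25 passed on 1 array and were not measured. Cyp2b10, Cyp2b23, Cyp2c55 and Cyp2c65 passed only on some arrays, at levels of -4.21 or less. Cyp2b13, Cyp2c37, Cyp2c70, Cyp2u1, Cyp2w1, Cyp3a11 and Cyp3a41a were above background on all 4 and within 2-fold in all 5 comparisons.

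In family 4, 13 of 14 genes were measured, and Cyp4f15 passed on 1 array only. After injury 2 of 13 were lower and none was higher in WT kidney, a share lower of 15.4% against 13.2% of all genes. In NLRC5-/- kidney 1 was lower and 2 were higher, 7.69% and 15.4% against 3.11% and 4.30% of all genes. The plot of the remaining families shows 3 wide lines among them, those of Cyp4b1, Cyp4a12a and Cyp4f14.

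**Figure D4:**
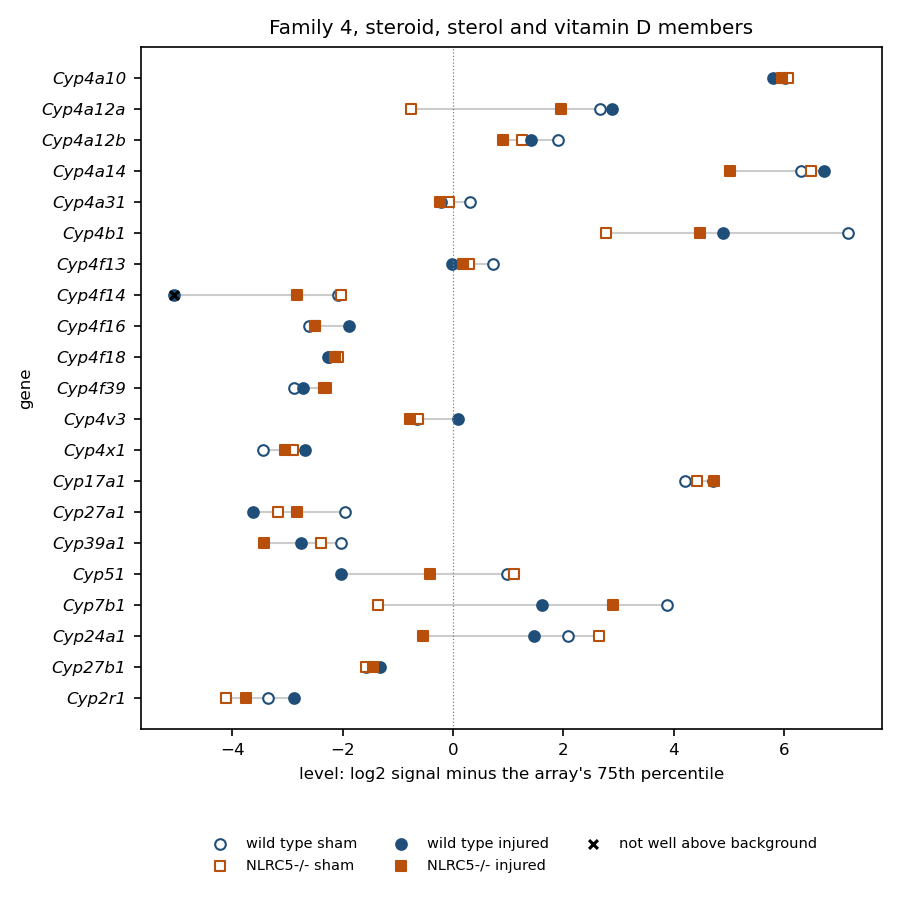
Level of each measured member of family 4 and of the steroid, sterol and vitamin D groups (log2 signal minus the array's 75th percentile, x axis) on the 4 arrays, with symbols as in the plot of families 1 to 3. Cyp7b1 runs from -1.36 on the NLRC5-/- sham array to 3.88 on the WT sham array.

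The Cyp4a genes encode omega-hydroxylases that make 20-hydroxyeicosatetraenoic acid, a lipid acting on renal vessels and salt transport, and are targets of the nuclear receptor PPARA. None of the 5 was past 2-fold after injury in WT kidney. Cyp4a10 read 6.01, 6.08, 5.80 and 5.96 by its brightest probe, 0.28 from lowest to highest. Its other 3 probes read from 4.13 to -0.39. They gave -0.99, -1.13 and -0.12 for the injury difference in WT, so that 1 of its 4 probes was past 2-fold there. In the same probe order they gave -1.27, -0.76 and -0.18 for the injury difference in NLRC5-/-. For NLRC5-/- injured against WT sham they gave -1.54, -1.41 and -0.56. Cyp4a14 read 6.31 in WT sham, 6.48 in NLRC5-/- sham, 6.72 in WT injured and 5.02 in NLRC5-/- injured kidney. The NLRC5-/- injured array was the low one, 2.75-fold under its own sham, 2.44-fold under WT sham and 3.24-fold under WT injured. Cyp4a12a, the male-predominant arachidonic acid hydroxylase of mouse kidney, read 2.67, -0.76, 2.88 and 1.95. It was 10.8-fold lower on the NLRC5-/- sham array than on the WT sham array and 6.53-fold higher in NLRC5-/- injured than in NLRC5-/- sham kidney, while the 3 arrays with the male pattern stayed within 0.93. Cyp4a12b, whose probe also lists Cyp4a12a, read 1.90, 1.25, 1.41 and 0.91, and Cyp4a31 ranged from -0.24 to 0.30.

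Cyp4b1, a fatty acid hydroxylase known to be higher in male mouse kidney, read 7.16 in WT sham, 2.77 in NLRC5-/- sham, 4.89 in WT injured and 4.48 in NLRC5-/- injured kidney. The WT sham array was high and the NLRC5-/- sham array low, 21.1-fold apart. The gene was 4.83-fold lower after injury in WT and 3.27-fold higher in NLRC5-/-, yet the injured arrays differed by -0.42 and the NLRC5-/- injured array was 6.45-fold below WT sham. As for Cyp2e1, fat markers were high on the WT sham array and sex differed between the sham arrays, and their part was not tested. Of the Cyp4f genes, which inactivate leukotrienes, Cyp4f14 read -2.09, -2.04, -5.05 and -2.83 and was not well above background in WT injured kidney, where it was at least 6.28-fold lower than in WT sham. Cyp4f13, Cyp4f16, Cyp4f18, Cyp4f39, Cyp4v3 and Cyp4x1 stayed within 2-fold in all 5 comparisons.

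Among the steroid hormone genes, Cyp17a1, the 17-hydroxylase of steroid synthesis, was measured and read 4.20, 4.43, 4.71 and 4.73, within 2-fold throughout. Cyp11a1, which starts steroid synthesis from cholesterol, and Cyp11b2, the aldosterone synthase, were not well above background on any array. Of 9 adrenal markers 8 were above background on all arrays, at a summed level of 2.84, 3.75, 1.88 and 3.99 in the same order, with Th at background. Although the sum fell in WT injury, the median of the 8 was 0.48 there, and only Hsd3b6 was past 2-fold, at -2.68. The part of these markers in the Cyp17a1 value was not tested.

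Of 6 sterol and bile acid genes 4 were measured. In WT kidney 3 of the 4 were lower after injury, against 13.2% of all genes. Cyp51, the lanosterol demethylase of cholesterol synthesis, read 0.97 in WT sham, 1.10 in NLRC5-/- sham, -2.04 in WT injured and -0.42 in NLRC5-/- injured kidney. Both injured arrays were below both sham arrays, by 8.06-fold in WT and 2.88-fold in NLRC5-/-. Its 3 probes gave -3.01, -3.18 and -2.22 in WT and -1.53, -1.58 and -0.77 in NLRC5-/-. Against WT sham the NLRC5-/- injured array was 2.63-fold lower by the brightest probe and differed by 0.05 by another of its probes. Cyp7b1, which 7-hydroxylates oxysterols and dehydroepiandrosterone, read 3.88, -1.36, 1.62 and 2.90. It was 37.8-fold lower in NLRC5-/- sham than in WT sham, 4.81-fold lower after injury in WT and 19.1-fold higher after injury in NLRC5-/-. Against WT sham both injured arrays were lower, by 2.27 and 0.98. Cyp27a1, the mitochondrial sterol 27-hydroxylase, read -1.96, -3.16, -3.62 and -2.83, which was 3.14-fold lower after injury in WT and 1.26-fold higher in NLRC5-/-. The WT difference of -1.65 was -0.66 with normexp background correction and -0.63 with replaced backgrounds, so that 2 of the 4 sterol genes were then past 2-fold. Cyp39a1, an oxysterol hydroxylase of bile acid synthesis, read -2.02, -2.39, -2.76 and -3.43, lowest on the NLRC5-/- injured array at 2.65-fold under WT sham. With normexp background correction that array was above its own sham by 0.87 and above WT sham by 0.57, and with replaced backgrounds the differences were -0.43 and -0.71. A second Cyp39a1 probe gave -0.11 for injury in WT, -0.84 for injury in NLRC5-/- and -0.91 for NLRC5-/- injured against WT sham, all under 2-fold. The liver genes Cyp7a1 and Cyp8b1 of bile acid synthesis were not well above background. Of 8 liver markers on the array Apoa1 and Ahsg were at background throughout, and the list summed to 7.44, 5.49, 11.7 and 8.10. Although the sum rose in WT injury, the median of the 6 measured was -1.26 there. Of these, 3 were lower and 1 higher, against 13.2% and 14.1% of all genes.

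The vitamin D members were all measured. Cyp24a1, the 24-hydroxylase that degrades active vitamin D, read 2.08 in WT sham, 2.64 in NLRC5-/- sham, 1.47 in WT injured and -0.54 in NLRC5-/- injured kidney. The NLRC5-/- injured array was the low one, 9.12-fold under its own sham, 6.17-fold under WT sham and 4.03-fold under WT injured, whereas WT differed by -0.61 after injury. Cyp27b1, the 1-alpha-hydroxylase that activates vitamin D, read -1.58, -1.57, -1.33 and -1.45. Cyp2r1, a 25-hydroxylase, read -3.35, -4.11, -2.89 and -3.74. Neither was past 2-fold in any comparison. Among 8 genes of vitamin D handling, 4 were lower and none higher after injury in WT kidney, against 13.2% and 14.1% of all genes. In NLRC5-/- kidney 1 was lower, against 3.11% of all genes.

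Set side by side, the injury differences within each genotype, which share no array, had 5 of 54 members at least 2-fold lower in both (Cyp2d9, Cyp2d10, Cyp2d12, Cyp2d26 and Cyp51), against 1.66% of all genes, and 1 higher in both (Cyp3a13), against 2.52%. These 5 were 27.8% of the 18 members lower in WT and 62.5% of the 8 lower in NLRC5-/-. The corresponding shares over all genes were 12.5% and 52.4%. Such shares rise with the number of genes lower in each genotype, 18 and 8 of 54 members against 2100 and 502 of 15883 genes. They therefore do not compare how far the genotypes share a response. The Cyp2d genes among the 5 lie in 1 cluster of close copies and do not count as independent. Cyp2d34, Cyp2e1, Cyp4b1 and Cyp7b1 went opposite ways by at least 2-fold each, 4 of 54 against 0.737% of all genes. As given above, Cyp2e1 in NLRC5-/- was under 2-fold with either background correction. Among the genes past 2-fold in both genotypes so were, in NLRC5-/-, Cyp2d9 and Cyp3a13 with replaced backgrounds and Cyp2d10 by its mean over probes. Cyp2d9 by its second probe and Cyp51 by 1 of its other probes were also under 2-fold in NLRC5-/-. For Cyp2e1 and Cyp4b1 both injured arrays were at least 2-fold below WT sham. Among 51 members above background on all 4 arrays, the difference in NLRC5-/- exceeded that in WT by at least 2-fold for 21 and was smaller by at least 2-fold for 5, against 9.81% and 9.32% of all genes. The members' differences had an SD of 1.74 in WT and 1.20 in NLRC5-/-, and those of all genes 1.05 and 0.60.

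**Figure D5:**
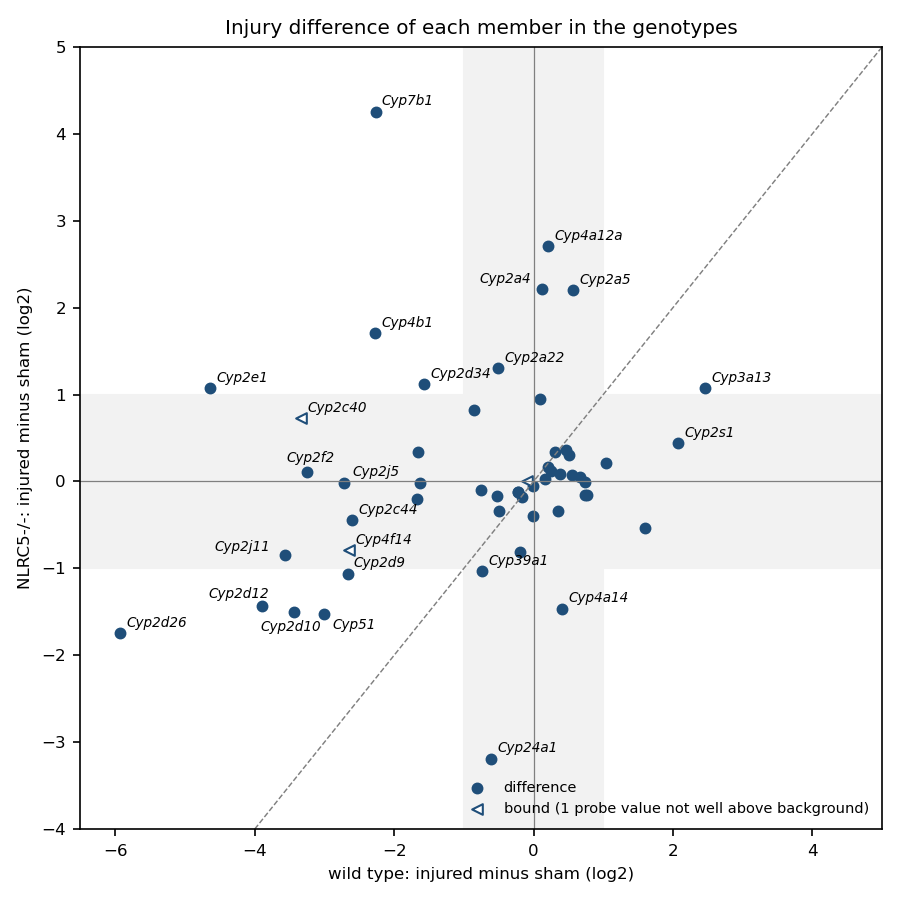
Injured minus sham (log2) for each measured member with a value in both genotypes, WT on the x axis and NLRC5-/- on the y axis, with the range under 2-fold shaded, a dashed line where both are equal and triangles for bounds. The Cyp2d genes 9, 10, 12 and 26 and Cyp51 lie lower left, and Cyp7b1, Cyp4b1, Cyp2e1 and Cyp2d34 upper left.

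Promoter sequence was available for 54 of the 74 members, as 61 start sites in RefSeq (GRCm38.p6). In the 250 bases before the start, TATAAA was searched on both strands for the TATA box, CAAAGTCCA for a binding element of HNF4A, the proximal tubule and liver regulator, and GTTAAT for a half-site of HNF1 factors. The TATA letters were found in 36.1% of member promoters and 12.4% of all 32851 promoters. CAAAGTCCA was found in 11.5% against 0.384%, in Cyp2c40, Cyp2c65, Cyp2c70, Cyp3a11, Cyp3a16, Cyp3a41a and Cyp8b1, and GTTAAT in 8.20% against 6.43%. Promoters of one cluster are related copies and do not count as independent. The promoters of Cyp2a4 and Cyp2a5, which lie in 1 cluster of close copies, and of the 3 Cyp2d genes lower in both genotypes whose promoter was available, are shown with these letters in capitals.
Cyp2a4 (chr7:26306942-26307191, plus strand): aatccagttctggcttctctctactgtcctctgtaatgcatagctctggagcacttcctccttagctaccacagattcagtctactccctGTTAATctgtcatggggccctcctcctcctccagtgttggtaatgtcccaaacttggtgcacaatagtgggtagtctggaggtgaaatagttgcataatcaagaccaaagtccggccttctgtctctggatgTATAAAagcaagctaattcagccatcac
Cyp2a5 (chr7:26835089-26835338, plus strand): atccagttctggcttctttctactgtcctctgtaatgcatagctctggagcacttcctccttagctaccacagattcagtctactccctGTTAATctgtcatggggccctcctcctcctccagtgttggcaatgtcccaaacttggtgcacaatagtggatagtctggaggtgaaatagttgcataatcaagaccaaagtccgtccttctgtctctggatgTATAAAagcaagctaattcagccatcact
Cyp2d9 (chr15:82452127-82452376, plus strand): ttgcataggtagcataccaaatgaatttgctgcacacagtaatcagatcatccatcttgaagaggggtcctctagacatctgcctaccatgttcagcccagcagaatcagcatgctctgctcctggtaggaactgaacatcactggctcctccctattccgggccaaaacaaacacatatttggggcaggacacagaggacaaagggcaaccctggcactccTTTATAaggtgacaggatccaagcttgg
Cyp2d10 (chr15:82407195-82407444, minus strand): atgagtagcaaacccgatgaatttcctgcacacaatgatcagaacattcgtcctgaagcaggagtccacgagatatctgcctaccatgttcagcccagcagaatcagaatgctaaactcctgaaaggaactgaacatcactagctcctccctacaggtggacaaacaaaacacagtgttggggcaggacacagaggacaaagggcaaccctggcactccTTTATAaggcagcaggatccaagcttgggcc
Cyp2d26 (chr15:82794246-82794495, minus strand): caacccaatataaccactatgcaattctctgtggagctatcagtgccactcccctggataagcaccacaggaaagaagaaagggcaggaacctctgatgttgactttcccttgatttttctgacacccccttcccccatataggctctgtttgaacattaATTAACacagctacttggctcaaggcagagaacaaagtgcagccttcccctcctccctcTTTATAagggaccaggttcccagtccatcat
The Cyp2a4 and Cyp2a5 stretches were identical at 97.6% of aligned positions, with TATAAA beginning 28 and 29 bases before the start and GTTAAT 160 and 161 bases before it. The 3 Cyp2d promoters held the reverse letters TTTATA at 28, 31 and 31 bases, and Cyp2d26 also held ATTAAC at 90 bases. A match of letters is a description and not a measured binding site.

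The other genes of the pathway were taken from lists and described by counts, beside which 13.2% of all genes were lower and 14.1% higher after injury in WT, and 3.11% lower and 4.30% higher in NLRC5-/-. Of 7 redox partners, which pass electrons to P450 enzymes, 2 were lower and none higher after injury in WT kidney (Cyb5a by 1.05 and Cyb5b by 1.02 on the log2 scale), and none was past 2-fold in NLRC5-/- kidney. Por, the reductase that serves the microsomal enzymes, read 6.15, 6.08, 6.32 and 6.39 in the order used above. Of 9 heme supply genes, Uros was lower in WT by 1.96 and Hmox1, which degrades heme, higher by 3.04, with 1.03 for Hmox1 in NLRC5-/-. Of 16 measured nuclear receptors and regulators, 3 were lower and 1 higher after injury in WT, 18.8% and 6.25%, near or below the shares of all genes. Hnf4a was lower by 1.06 and Ghr, the growth hormone receptor, by 1.49, and the xenobiotic receptor Nr1i3 was higher by 3.97, from -0.68 to 3.28. In NLRC5-/- none of the 16 was past 2-fold. Of 8 PPARA targets, 1 was lower and 2 were higher in WT, and 1 was higher in NLRC5-/-. The lower gene was Cidea, at -6.54, which is also on the fat list and read 2.73 in WT sham and -3.71 or less elsewhere. The gene higher in NLRC5-/- was Acot1, whose probe was not well above background in NLRC5-/- sham. Of 8 measured genes for fatty acid oxides and eicosanoids, 2 were higher and none lower in WT. Among 12 conjugating enzymes, which act on P450 products, 5 were lower and 3 higher in WT. Between the sham arrays 5 were lower and 1 higher in NLRC5-/-, against 3.01% and 3.74% of all genes. Ugt2b37 and Ugt2b38 were higher in WT sham and NLRC5-/- injured than in the other kidneys, at 4.74 and 3.74 in WT sham, 1.52 and 0.21 in NLRC5-/- sham, 1.48 and 0.76 in WT injured and 4.21 and 2.68 in NLRC5-/- injured kidney.

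A single model over all 4 arrays gave the only p-values. In limma fits with injury and genotype as additive terms, which leave 1 residual degree of freedom, 0 of 16536 genes had an adjusted p (Benjamini-Hochberg) under 0.05 for either term, and the smallest adjusted p among members was 0.432 for injury and 0.766 for genotype. At an unadjusted limma p under 0.05, 6 members were lower (Cyp51, Cyp2d9, Cyp2d10, Cyp2d12, Cyp2d26 and Cyp39a1) and 1 higher (Cyp3a13) with injury, against 6.09% and 5.15% of all genes. For genotype 5 were lower and 3 higher, against 2.11% and 3.35%. The injury difference of Cyp51 averaged over the genotypes was -2.27 ± 0.47 (SE) and that of Cyp2d26 -3.83 ± 1.15 (SE), and both were lower in 2 of 2 genotypes. In this fit a response that differs between the genotypes counts as error. With the NLRC5-/- injured array left out and the genotype term dropped, limma called 787 genes for injury, 10 of them members, and 0 with any other array left out. That fit sets the single WT injured array against the 2 sham arrays, takes each gene's residual spread from those 2 alone and assumes that the lone array varies like them, so that it compares 1 array and not a group.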

How the data were processed

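Total RNA from kidney, 1 array per group, was labelled with Cy3 and hybridised to 1-colour Agilent arrays, per the labels' protocols. The deposited scanner files hold spot intensity extracted with Agilent Feature Extraction, whose version is 10.7.3.1 in the deposited headers. The submitters' processing notes name version 9.1. The deposited value table holds the authors' log2 values of the same arrays, with their centring unstated, and was used as an alternative.

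Control and outlier-flagged spots were left out, spots of a probe were averaged, and log2 signals were set to the array's 75th percentile. Each gene took its brightest probe, kept if well above background on at least 2 arrays. A probe not well above background was raised to the lowest signal that was, and its difference is given as at least that fold. Fits used limma 3.58.1 in R 4.3.3 and were tested on simulated data. Members and lists were chosen with earlier results of these data known. Genes given in full were those with the largest differences in each comparison and a set list of well-studied members. The number of arrays limits the precision. Alternatives covered scaling, background correction, the authors' values, probe averaging, filters and thresholds. Exon and UTR positions were not looked up, since no mm9 annotation was used.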

Additional observations from a re-analysis of the deposited data

Results flagged for a closer look

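Several members had differences of opposite direction under the same contrast, each at least 2-fold. With 1 array per group these differences between groups were not tested. After injury, Cyp2d34 differed by 1.12 in NLRC5-/- and -1.57 in WT kidney, Cyp2e1 by 1.07 and -4.64, Cyp4b1 by 1.71 and -2.27, and Cyp7b1 by 4.26 and -2.27 (log2). Between the genotypes, NLRC5-/- minus WT, Cyp2c40 differed by at least 1.24 in injured and -2.82 in sham kidney, Cyp2d34 by 1.67 and -1.02, Cyp2e1 by 1.91 and -3.80, and Cyp7b1 by 1.28 and -5.24. One side of each pair, the NLRC5-/- injury difference or the sham difference, uses the NLRC5-/- sham array, which alone had the female pattern. Cyp2e1 in NLRC5-/- injury was 0.52 with normexp background correction, Cyp7b1 between injured arrays 0.60, and Cyp2c40 between injured arrays 0.40 with replaced backgrounds, all under 2-fold. Cyp7b1 between injured arrays stayed at least 2-fold higher with replaced backgrounds.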

How the results depend on the processing

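No paired analysis was possible because each group held 1 array. With normexp background correction, members higher were 2 in WT injury (4 in the reported values), 24 in NLRC5-/- injury (9) and 20 for NLRC5-/- injured against WT sham (2), and limma called 368 genes for injury and 36 for genotype. With outlier local backgrounds replaced first, an alternative chosen after seeing the data, these were 2 for WT injury and 6 for NLRC5-/- injury. They were 1 for NLRC5-/- injured against WT sham, 2 between shams (4) and 0 for limma. NLRC5-/- injured against WT sham had 1 higher with median, quantile or the authors' scaling and 0 with the mean over probes. Between shams 2 were higher with median scaling. At 4-fold, higher counts were 2, 4, 0, 0 and 6 in the order WT injury, NLRC5-/- injury, NLRC5-/- injured against WT sham, shams and injured arrays, and lower counts were 1 in NLRC5-/- injury, 5 for NLRC5-/- injured against WT sham and 2 between injured arrays. At 1.5-fold, 8, 8 and 9 were higher in WT injury, NLRC5-/- injured against WT sham and shams, and 19 and 12 were lower for NLRC5-/- injured against WT sham and between injured arrays. Leaving out 1 array, with the genotype term dropped, gave 0 to 787 limma calls for injury, the 787 from 1 injured array against 2 sham arrays. Reversed by normexp were Cyp2c40 (0.24) and Cyp39a1 (0.57) for NLRC5-/- injured against WT sham, Cyp39a1 in NLRC5-/- injury (0.87) and Cyp2c66 between injured arrays (0.95), and by the mean over probes Cyp2d22 for NLRC5-/- injured against WT sham (-0.12). With outlier backgrounds replaced none reversed. The cause was not tested. Of 82 single-gene values past 2-fold, 4 no longer were with median, quantile or the authors' scaling, 17 with normexp (4 of them reversed) and 19 with replaced backgrounds, and of 81 with a mean over probes 9 no longer were.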
